A study of Mus musculus with 22 samples.

Results

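*Neurog3* transcripts, the mark of the earliest endocrine progenitor, overlapped between control and *Isl1CKO* cells at E14.5. At P9 they were present in all *Isl1CKO* libraries and at or near 0 in 3 of 5 control libraries, but the groups overlapped there too. Over all genes the edgeR test passed neither the difference at P9 (adjusted p = 0.20) nor the interaction of genotype and age (adjusted p = 0.38). The genes described are 10 genes of the *Neurog3* and Notch step: *Neurog3*, *Sox4*, *Hes1*, *Hes6*, *Dll1*, *Mfng*, *Cbfa2t3*, *Btbd17*, *Gadd45a* and *Runx1t1*. They were chosen by symbol, and all 10 were found among the 24296 genes that both deposited count tables hold. Each library was made from 100 tdTomato+ cells sorted from mouse pancreas. *Isl1CKO* mice carried Isl1 f/f, Neurod1-Cre and the Ai14 reporter, in which a tdTomato cassette is switched on by Cre. Controls carried Neurod1-Cre and Ai14 as well. The study's text gives the sequenced controls a single floxed *Isl1* allele (Isl1 f/+), its methods also name Isl1 f/f mice as controls, and the labels of these samples read WT. All were male and female littermates on a C57BL/6 background. There were 6 control and 5 *Isl1CKO* libraries at embryonic day E14.5, and 5 control and 6 *Isl1CKO* libraries at postnatal day P9, where the protocol gives pups of P9 to P10. The comparison asks whether transcripts of the progenitor step differed after loss of *Isl1*, or only those of the steps that follow it.

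In the developing pancreas a cell of the epithelial trunk that reaches a high level of the transcription factor NEUROG3 leaves the cell cycle and enters the endocrine lineage. NEUROG3 switches on the Notch ligand gene *Dll1*, and Notch signalling in the neighbouring cells raises HES1, which represses *Neurog3* there, so that only some cells of the epithelium become endocrine. *Neurod1* is a target of NEUROG3. The reporter therefore marks cells in which Neurod1-Cre was already active, so that the sorted cells stood at or after the *Neurog3* step and the trunk epithelium before it was not sampled. *Isl1* was removed by the same Cre, so within a cell it too was lost at or after that step. A member that did not differ therefore does not show that the step can do without *Isl1*.

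Depth ran from 8477482 to 13580985 counts per library. Levels are given as CPM, the count divided by the library's size after scaling by TMM factors over all 22 libraries, times 1e6, and fold changes come from edgeR's quasi-likelihood test with Benjamini-Hochberg adjustment over all genes tested. Because the design does not rest on single cells, fewer cells that express a gene and less RNA of it per cell cannot be told apart. The pan-endocrine marker list was high in all 22 libraries, with summed levels from 10570 to 66184 CPM, so the sorted cells carried the defining genes of endocrine cells. The 8 hormone genes took 51.1% to 56.4% of all counts in control libraries at P9 and 13.98% to 30.2% in *Isl1CKO* libraries, which makes the values at P9 depend on how libraries are scaled. *Isl1* itself was lower in *Isl1CKO* at E14.5 (log2 fold change -0.48, adjusted p = 0.0063) and higher at P9 (1.08, adjusted p = 0.0081, from 360 to 531 CPM in controls and 450 to 1244 CPM in *Isl1CKO*). Those counts sum all exons, including any that the floxed allele keeps, so they do not check the deletion.

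Compared per kilobase of exon, the members spanned a wide range in control cells at E14.5. *Hes6*, which encodes an antagonist of HES1, stood highest at 55.8 ± 4.26 CPM per kb (SD, n = 6). *Runx1t1*, which encodes a corepressor of the ETO family, followed at 38.1 ± 6.11 CPM per kb. *Gadd45a*, a growth-arrest gene, was at 21.6 ± 3.95 and *Sox4*, which encodes a SOX transcription factor, at 13.8 ± 2.59 CPM per kb. *Mfng* (9.15 ± 1.65), *Cbfa2t3* (6.99 ± 0.914), *Neurog3* (6.71 ± 1.93) and *Btbd17* (5.94 ± 1.67) came next, and neighbours in this order overlapped within 1 SD. *Dll1* (2.36 ± 0.957) and *Hes1* (1.65 ± 0.661 CPM per kb) were lowest, and overlapped within 1 SD as well. The order was different at P9. In control cells of that age *Neurog3* had the lowest mean of the 10, at 1.25 ± 1.83 CPM per kb (SD, n = 5), overlapping within 1 SD with *Dll1* (1.68 ± 0.743) and *Mfng* (2.20 ± 1.79), while in *Isl1CKO* cells it was at 7.20 ± 5.78 CPM per kb (SD, n = 6) and 5 members lay below it.

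**Figure D1:**
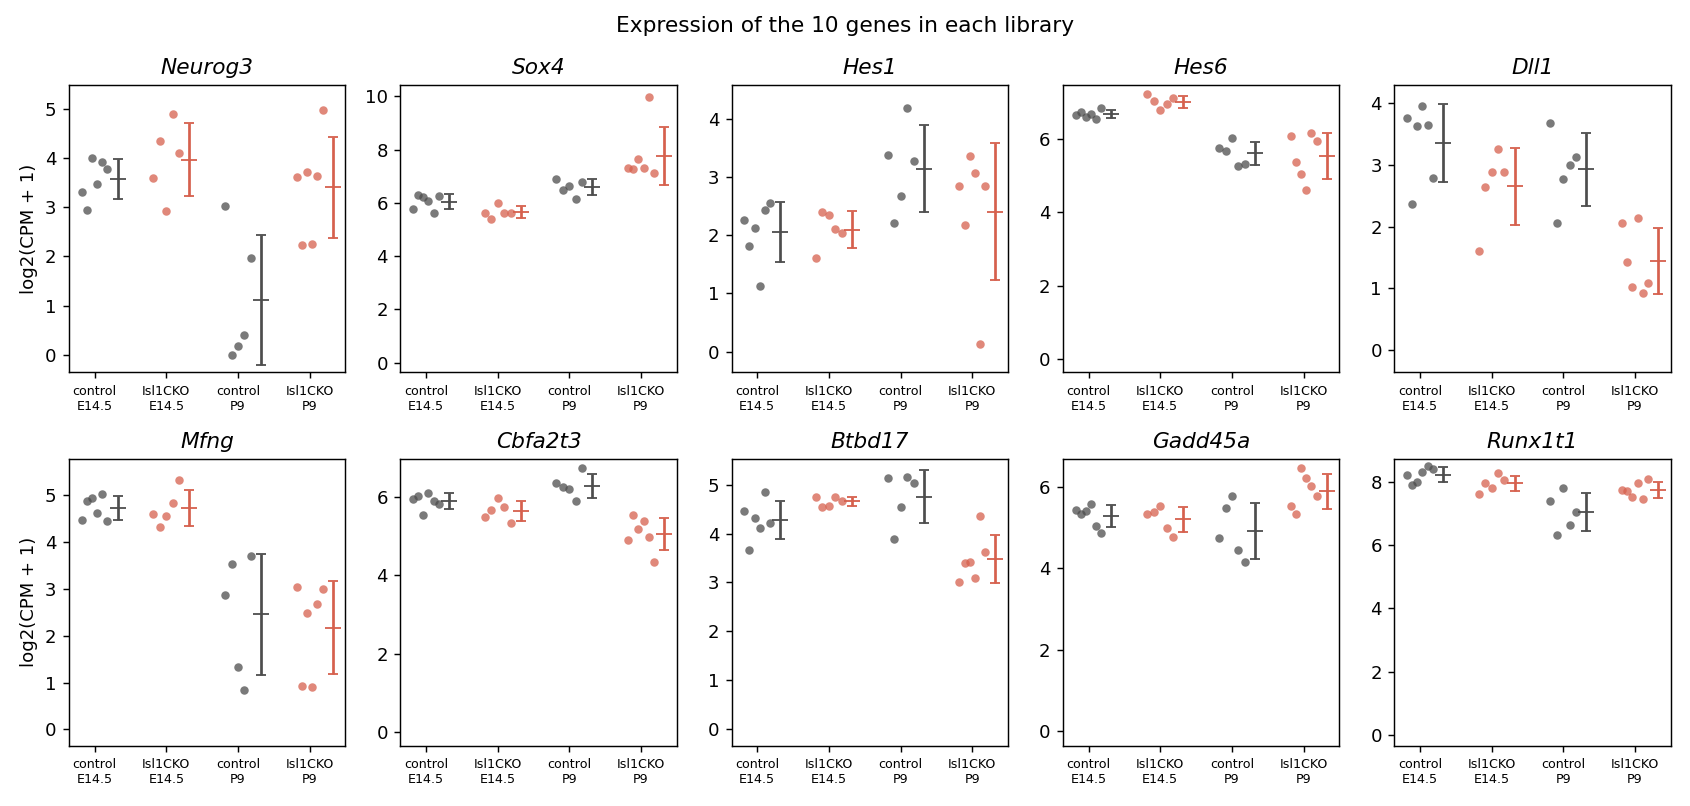
Levels of the 10 genes in each library, as log2(CPM + 1) on the vertical axis, for control (grey) and Isl1CKO (red) cells at E14.5 and P9. Points are libraries, and the bar beside them gives the mean and SD of the group. Cbfa2t3 at P9 shows no overlap between the groups (57.9 to 105 CPM in control and 19.3 to 44.9 CPM in Isl1CKO), and Sox4 has 1 Isl1CKO library at 1005 CPM.

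At E14.5 *Neurog3* was expressed in every library. Control libraries ranged from 6.66 to 15.0 CPM with a median of 11.3, and the 5 *Isl1CKO* libraries had 11.0, 19.1, 6.57, 28.5 and 16.2 CPM. The groups overlapped, and *Isl1CKO* held both the lowest and the highest library of the 11. The log2 fold change was 0.54 (SE 0.32, adjusted p = 0.58). An exact two-sided permutation test of the mean log2(CPM + 1) gave a difference of 0.40 with p = 0.294, where 11 libraries cannot give a p below 0.00433.

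At P9 control libraries had 7.14, 0, 0.138, 0.317 and 2.89 CPM of *Neurog3*, which were 51, 0, 1, 2 and 22 reads. A library with 0 reads allows a level of up to 0.454 CPM, the value of 3 counts, and this limit covers counting error only. The 6 *Isl1CKO* libraries ranged from 3.72 to 30.2 CPM with a median of 11.3, or 30 to 350 reads. Thus *Neurog3* was near the floor in 3 of 5 controls and present in every *Isl1CKO* library, and the groups overlapped only through control library 1. The fitted log2 fold change was 2.51 (SE 1.02), which did not pass over all genes (adjusted p = 0.20). Tested as a single gene, the mean log2(CPM + 1) was 2.29 higher in *Isl1CKO* (exact two-sided permutation p = 0.0173, or 0.0346 adjusted over the 2 ages). With a library left out this p ran from 0.00952 to 0.0381, and after adjustment over the 2 ages it did not pass for 8 of the 11 libraries left out (up to 0.0762), which are all but control library 1 and *Isl1CKO* libraries 2 and 4. The interaction of genotype and age did not pass for *Neurog3* either (1.97, SE 1.02, adjusted p = 0.38). In the order of group means, *Neurog3* stood at 16.3 ± 8.38 CPM in *Isl1CKO* at E14.5, 12.1 ± 9.68 in *Isl1CKO* at P9, 11.2 ± 3.23 in controls at E14.5 and 2.10 ± 3.06 in controls at P9, and the first 3 overlapped within 1 SD while the last lay below the third by more than 1 SD of either.

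*Neurog3* lies on chromosome 10 of GRCm38, from 62133090 to 62134763 on the plus strand, inside the span of *Fam241b* on the other strand. The 2 genes share 273 exon bases, which are 16.3% of the *Neurog3* exons, and the study counted with Rsubread's default settings, which do not use strand, so reads of the shared bases cannot be assigned to either gene by strand. At P9 control library 2 had 27.5 CPM of *Fam241b* and no read of *Neurog3*. Control libraries 1, 5, 4 and 3 had 18.1, 13.9, 7.29 and 3.31 CPM of *Fam241b*, which is also the order of their *Neurog3* levels. The *Isl1CKO* libraries had 16.3 to 33.2 CPM. The log2 fold change of *Fam241b* was 0.77 at P9 (SE 0.45, adjusted p = 0.43). Whether shared reads were counted at all, and their part in the *Neurog3* values, was not tested. Among the other members, *Gadd45a*, *Sox4*, *Dll1* and *Cbfa2t3* also share exon bases with genes annotated on the other strand (19.1%, 54.6%, 20.5% and 3.52% of their exons). The genes that overlap *Sox4*, *Dll1* and *Cbfa2t3* are in neither count table. All these overlaps are those of GENCODE M21, and the study counted with an earlier release.

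None of the 10 members passed at E14.5, where 1.43% of the 15960 genes tested did. At an unadjusted p under 0.05, 1 member was higher and 2 were lower, as were 878 and 949 of the 15960 genes. DESeq2 called 1 member, *Hes6* (adjusted p = 0.014), and 3.37% of all genes. The median log2 fold change of the 10 was -0.030, and that of all genes was -0.0045. No member had groups that did not overlap, which was so for 2.42% of all genes.

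Of the genes of Notch signalling and its repressors, *Hes6* was nearest to the threshold at E14.5. *Hes6* ranged from 92.5 to 114 CPM in controls (median 99.8) and had 147, 129, 110, 121 and 136 CPM in *Isl1CKO*, so that 1 *Isl1CKO* library fell within the control range. Its log2 fold change was 0.35 (SE 0.091, adjusted p = 0.083). *Hes1*, the Notch effector, was low in both groups, at 1.182 to 4.89 CPM in controls and 2.04 to 4.27 CPM in *Isl1CKO*, with a log2 fold change of 0.004 (SE 0.39). *Dll1* had 4.12 to 14.496 CPM in controls with a median of 11.4, and 2.04, 5.21, 6.34, 8.52 and 6.36 CPM in *Isl1CKO*. The log2 fold change of this ligand gene was -0.80 (SE 0.38, adjusted p = 0.45), with a 95% interval from -1.55 to -0.055 before adjustment. *Mfng*, whose product adds sugar to Notch receptors and changes their choice of ligand, was at 25.97 ± 4.68 CPM in controls and 26.3 ± 7.90 CPM in *Isl1CKO* (log2 fold change 0.021, SE 0.19).

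The groups of the other members overlapped at E14.5 as well. *Sox4* ranged from 48.7 to 78.3 CPM in controls and from 41.4 to 63.6 CPM in *Isl1CKO* (log2 fold change -0.41, SE 0.15, adjusted p = 0.27). *Runx1t1* was at 303 ± 48.7 CPM in controls and 251 ± 43.6 CPM in *Isl1CKO* (adjusted p = 0.43), and *Cbfa2t3*, its relative in the ETO family, at 58.5 ± 7.65 and 49.1 ± 8.60 CPM (adjusted p = 0.51). *Btbd17*, which encodes a BTB domain protein, had 25.9, 22.3, 22.9, 26.1 and 24.5 CPM in *Isl1CKO* against 11.7 to 27.8 CPM in controls (log2 fold change 0.37, SE 0.19, adjusted p = 0.49). *Gadd45a* was nearly equal, at 38.1 ± 6.97 and 36.4 ± 7.63 CPM. Outside *Neurog3*, *Hes1* and *Dll1*, the 95% intervals at this age reached at most 0.73 in either direction on the log2 scale. *Isl1CKO* libraries 3, 4 and 5 stood apart in macrophage markers, with 21.9, 47.2 and 17.0 CPM summed over the 6 genes of that list other than *C1qa*, against 0.439 to 6.06 CPM in the other 8 libraries of that age. *C1qa* itself did not separate them (24.7 to 37.0 CPM in controls, 24.8 to 37.1 CPM in *Isl1CKO*). Without these 3 libraries, none of the 10 members passed at E14.5 either. That fit kept few *Isl1CKO* libraries and called 42 of 18031 genes, against 228 of 15960 with all libraries. A member that did not pass in it therefore says little, and the part of these libraries in the members' values was not tested.

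**Figure D2:**
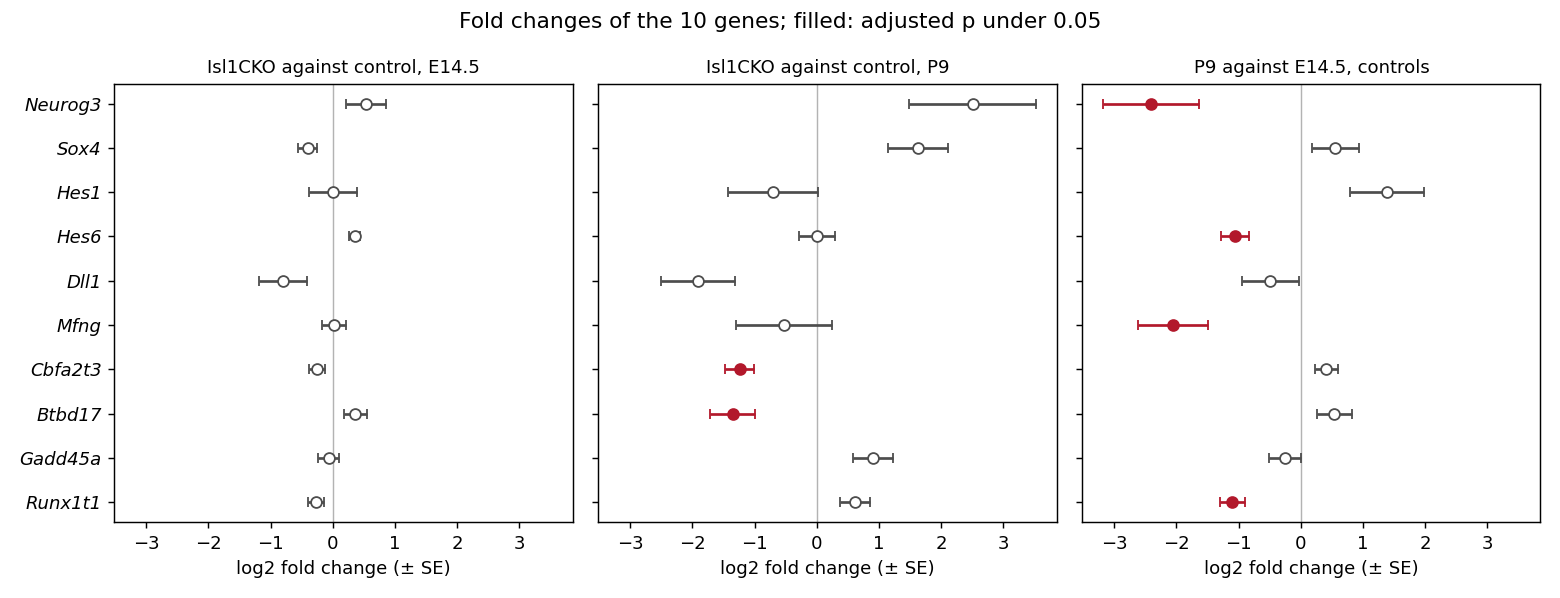
Log2 fold changes of the 10 genes (horizontal axis) with their SE, for Isl1CKO against control at E14.5 and at P9 and for P9 against E14.5 in controls. Filled red points passed an adjusted p under 0.05. None passed at E14.5, Cbfa2t3 and Btbd17 were lower in Isl1CKO at P9, and Neurog3, Hes6, Mfng and Runx1t1 fell with age in controls.

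At P9 the members diverged. Both members that passed were lower in *Isl1CKO*, *Cbfa2t3* and *Btbd17*. They were 2 of 10, where 4.81% of the 13964 genes tested passed, and 2.14% passed with a lower level in *Isl1CKO*. At an unadjusted p under 0.05, 4 members were higher and 3 lower, as were 1317 and 1116 of the 13964 genes. The median log2 fold change was -0.26 for the members and 0.023 for all genes, and the median size without sign was 1.07 for the members and 0.38 for all genes. The groups did not overlap for 2 members, *Sox4* and *Cbfa2t3*, as for 5.44% of all genes. DESeq2 called 3 members, adding *Dll1* (adjusted p = 0.025), and 8.67% of all genes, and it gave no adjusted p for *Sox4*.

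*Cbfa2t3* had 80.9, 74.5, 71.5, 57.9 and 105 CPM in controls and 19.3 to 44.9 CPM in *Isl1CKO*, with a median of 32.6. Every *Isl1CKO* library was below every control. The gene, whose product is a corepressor of the ETO family, fell 2.36-fold (log2 fold change -1.24, SE 0.23, adjusted p = 0.0058). *Btbd17* had 34.5, 13.9, 22.2, 35.03 and 32.1 CPM in controls and 7.04 to 19.7 CPM in *Isl1CKO*, with a median of 9.61. The groups overlapped through control library 2 and *Isl1CKO* library 5. *Btbd17* fell 2.55-fold (log2 fold change -1.35, SE 0.37), close to the threshold with an adjusted p of 0.047, and it failed when any of 9 of the 11 libraries was left out, with adjusted p up to 0.11.

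*Dll1* and *Sox4* were the next nearest to the threshold. *Dll1* had 11.8, 3.18, 5.80, 6.97 and 7.76 CPM in controls and 0.905 to 3.40 CPM in *Isl1CKO*, with a median of 1.41. Its log2 fold change was -1.91 (SE 0.59, adjusted p = 0.083). Hence *Neurog3* reads were more frequent and reads of this ligand gene scarcer in the same group, though neither passed over all genes. *Sox4* had 119, 89.4, 99.1, 70.2 and 110 CPM in controls and 158, 154, 202, 160, 1005 and 138 CPM in *Isl1CKO*. All *Isl1CKO* libraries were above all controls, and library 5 lay far above the rest. The log2 fold change was 1.63 (SE 0.49, adjusted p = 0.071), and without library 5 it was 0.74 with an adjusted p of 0.019. The same library had only 1 read of *Hes1*.

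*Gadd45a* and *Runx1t1* leaned upwards at P9. *Gadd45a* had 25.9, 43.5, 53.4, 20.6 and 16.7 CPM in controls and 39.5 to 86.5 CPM in *Isl1CKO* (median 58.5), with a log2 fold change of 0.90 (SE 0.32, adjusted p = 0.13). *Runx1t1* had 169, 79.8, 226, 99.7 and 131 CPM in controls and 175 to 271 CPM in *Isl1CKO* (median 212), with a log2 fold change of 0.62 (SE 0.23, adjusted p = 0.17). In both genes the groups overlapped. The 2 ETO-family members thus had opposite signs, and of them only *Cbfa2t3* passed. *Hes6* was at 48.5 ± 10.8 CPM in controls and 49.0 ± 19.8 in *Isl1CKO*, with a log2 fold change of 0.008 and a 95% interval from -0.56 to 0.57. *Mfng* (log2 fold change -0.52, SE 0.77) and *Hes1* (-0.70, SE 0.72) varied too much between libraries to be placed, from 0.792 to 12.0 CPM and from 3.63 to 17.1 CPM within the controls.

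These values at P9 depended on the scaling of the libraries. With total counts in place of TMM, the median gene moved to a log2 fold change of 0.68, and 3824 genes were called higher and 151 lower in *Isl1CKO*, instead of 372 and 299. *Cbfa2t3* (log2 fold change -0.60, adjusted p = 0.062) and *Btbd17* (-0.66, adjusted p = 0.23) kept their direction and did not pass. *Neurog3* (3.18, adjusted p = 0.034), *Sox4* (2.37, adjusted p = 0.0053), *Gadd45a* (1.55, adjusted p = 0.004) and *Runx1t1* (1.26, adjusted p = 0.0034) passed as higher. A change of scaling shifts all genes of a library alike. Differences relative to the median gene are therefore nearly fixed, and cannot tell which scaling is right.

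Markers of other cell types were checked beside these differences. At P9 the summed endothelial list was 1.84 to 5.55 CPM in controls and 7.67 to 95.9 CPM in *Isl1CKO*, and the highest of its 6 genes in *Isl1CKO* was *Cldn5* (3.83 to 94.8 CPM, median 41.5). *Pecam1* was at 0 to 8.82 CPM in *Isl1CKO* (median 1.41) and at 0 to 2.85 CPM in controls (median 0.454), and *Cdh5*, *Kdr*, *Tek* and *Emcn* were each under 1 CPM in every *Isl1CKO* library. The trunk and duct list was 66.0 to 119 CPM in controls, and reached 210 and 506 CPM in *Isl1CKO* libraries 1 and 3 with 72.4 to 102 CPM in the other 4. *Neurog3* was highest in library 6 (30.2 CPM), where that list was at 102 CPM, and next in library 3 (12.0 CPM), where the list was highest. Library 1, second in the list, had 11.2 CPM of *Neurog3*, and libraries 2 and 4, with 79.6 and 94.8 CPM of the list, had 3.72 and 3.78 CPM. Library 5, lowest in the list at 72.4 CPM, had 11.4 CPM. The proliferation list overlapped, at 168 to 702 and 169 to 801 CPM. The acinar, mesenchymal, macrophage, glial and erythroid lists held no called gene at either age, but many of their genes were too low to be tested. At E14.5 and P9, 4 and 6 of 8 acinar, 3 and 3 of 7 mesenchymal and 4 and 2 of 7 macrophage genes were tested. For glial genes it was 4 and 3 of 6, and for erythroid genes 1 and 1 of 5. The acinar list at P9 was 56.8 to 1149 CPM in controls and 24.7 to 235 CPM in *Isl1CKO*. The mesenchymal list at E14.5 was 14.2 to 48.9 and 10.0 to 19.4 CPM. At E14.5 the endothelial list was at 0.748 to 1.58 CPM in controls and 2.23 to 3.75 CPM in *Isl1CKO*. Only 1 of its 6 genes was tested at that age, and it was not called. The part of these lists in the members' values was not tested.

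To show the sequence in front of *Neurog3*, which heads the step, and of the 2 members that passed at P9, the 250 bases before the start site of *Neurog3*, *Cbfa2t3* and *Btbd17* are given from RefSeq on GRCm38.p6, 5′ to 3′ on the strand of the gene. Capitals mark the E box CANNTG, the letters bound by basic helix-loop-helix factors such as NEUROG3 and NEUROD1, and the N box CACNAG, bound by HES factors, both searched on either strand. The windows are chr10:62132840-62133089 (plus strand), chr8:122699110-122699359 (minus strand) and chr11:114795893-114796142 (minus strand).
Neurog3: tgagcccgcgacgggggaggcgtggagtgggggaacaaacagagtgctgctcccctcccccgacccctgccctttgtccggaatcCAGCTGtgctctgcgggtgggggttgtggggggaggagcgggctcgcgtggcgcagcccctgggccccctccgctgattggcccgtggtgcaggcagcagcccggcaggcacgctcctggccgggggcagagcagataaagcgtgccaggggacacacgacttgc
Cbfa2t3: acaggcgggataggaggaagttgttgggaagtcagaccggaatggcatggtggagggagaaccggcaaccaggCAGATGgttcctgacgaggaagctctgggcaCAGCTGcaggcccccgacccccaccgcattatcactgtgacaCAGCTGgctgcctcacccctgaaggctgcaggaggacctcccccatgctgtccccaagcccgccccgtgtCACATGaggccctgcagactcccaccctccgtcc
Btbd17: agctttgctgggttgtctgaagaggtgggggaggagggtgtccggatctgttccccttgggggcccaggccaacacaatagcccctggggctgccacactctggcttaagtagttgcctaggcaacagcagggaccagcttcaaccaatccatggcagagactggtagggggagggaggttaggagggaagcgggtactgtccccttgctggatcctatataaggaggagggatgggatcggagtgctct

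*Cbfa2t3* had 4 E boxes in this window, *Neurog3* 1 and *Btbd17* none. *Cbfa2t3* has a second window in the promoter table, chr8:122678176-122678425 on the minus strand, which held 1 E box and no N box. An E box stood in 66.2% of all 32851 promoter windows of this length, with a median of 1 per window, and an N box in 36.7%. None of the 3 windows shown held an N box. The homeodomain core TAAT, also searched on both strands, occurred once in the *Cbfa2t3* window shown and not in the other two, and 54.9% of all windows held it. The 2 boxes can overlap in sequence, which did not occur here. Of the 10 members, 7 had an entry in the promoter table.

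The interaction between genotype and age was passed by 1 of 10 members, *Btbd17*, where 2.08% of the 17265 genes tested passed. Its effect at P9 was lower than that at E14.5 by 1.71 on the log2 scale (-1.71, SE 0.40, adjusted p = 0.023), from slightly above control at E14.5 to below control at P9. *Cbfa2t3* (-0.99, SE 0.27, adjusted p = 0.051), *Sox4* (2.04, SE 0.55, adjusted p = 0.052) and *Runx1t1* (0.90, SE 0.28, adjusted p = 0.095) came near, and the other 6 members had adjusted p of 0.20 or more. Without *Isl1CKO* libraries 3, 4 and 5 of E14.5 no member passed, in a fit that called only 57 of 19409 genes. With total counts in place of TMM, *Btbd17* did not pass (-1.05, adjusted p = 0.087), and *Sox4* (2.75, adjusted p = 0.003), *Gadd45a* (1.59, adjusted p = 0.0065) and *Runx1t1* (adjusted p = 0.0019) did, each with a positive difference. With total counts 3199 of the 17265 genes passed, 3109 of them with a positive difference.

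In control cells 4 of the 10 members were lower at P9 than at E14.5. *Neurog3* fell 5.30-fold from E14.5 to P9 (log2 fold change -2.41, SE 0.77, adjusted p = 0.020), *Mfng* 4.15-fold (-2.05, SE 0.56, adjusted p = 0.0069), *Runx1t1* 2.15-fold (-1.10, SE 0.20, adjusted p = 1.9e-04) and *Hes6* 2.08-fold (-1.06, SE 0.22, adjusted p = 6.8e-04). Of all genes, 15.2% passed as lower at P9, and no member passed as higher. The largest rise in value was that of *Hes1*, from 3.36 ± 1.34 to 8.84 ± 5.19 CPM (log2 fold change 1.39, SE 0.59, adjusted p = 0.077). *Sox4*, *Cbfa2t3* and *Btbd17* were higher in value at P9 without passing, and their sign turned when total counts were used (-0.62, -0.76 and -0.63). Age cannot be told apart from the preparation of each age, since each age is a table of its own. For the 4 that fell in controls, the means in *Isl1CKO* were 16.3 and 12.1 CPM for *Neurog3*, 26.3 and 4.34 for *Mfng*, 251 and 217 for *Runx1t1*, and 129 and 49.0 for *Hes6* at E14.5 and P9. In the main edgeR fit with all libraries the interaction passed for none of them. That of *Runx1t1* passed with DESeq2, with limma-voom, with total counts, and without control library 3 of P9.

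The steps on either side of the members were described from 4 lists. These were written with earlier results of these data known, so their counts beside the share of all genes are a description. As above, 1.43% of all genes tested passed at E14.5 and 4.81% at P9. Of 12 genes tested that act upstream of *Neurog3* in the epithelium, 1 passed at E14.5, *Pdx1*, the pancreatic master regulator that is also kept in beta cells. *Pdx1* was lower in *Isl1CKO* at both ages (log2 fold change -0.71, adjusted p = 0.026, and -1.46, adjusted p = 3.4e-04). At P9, where 10 were tested, *Hhex* also passed as higher (4.05, SE 0.98, adjusted p = 0.027). This gene, which encodes a homeodomain factor of early foregut and later of delta cells, was at 0.131 to 0.560 CPM in controls and 0.945 to 13.3 CPM in *Isl1CKO*, with no overlap. The list's median was -0.051 at E14.5 and 0.26 at P9.

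Of the other Notch pathway genes, 40 were tested at E14.5 and 37 at P9. *Tle1*, a Groucho corepressor that HES proteins recruit, was higher in *Isl1CKO* at both ages. It had 16.0 to 27.4 CPM in controls at E14.5 and 40.9 to 57.9 CPM in *Isl1CKO* (log2 fold change 1.17, SE 0.15, adjusted p = 9.9e-04), and 29.3 to 71.8 against 118 to 458 CPM at P9 (2.29, SE 0.35, adjusted p = 0.0011). The groups did not overlap at either age. *Dlk1*, a membrane protein related to the Notch ligands, was lower at E14.5 (-0.65, SE 0.11, adjusted p = 0.0069) and passed in no direction at P9 (1.26, adjusted p = 0.12). No receptor gene of the list passed at either age, and the list's median was -0.035 and -0.029.

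Of the other genes of *Neurog3*-high cells, none of 13 passed at E14.5 by edgeR, with 1 higher and 2 lower at an unadjusted p under 0.05, and the smallest p belonged to *Sox11* (log2 fold change -0.59, adjusted p = 0.21) and *Cotl1* (0.62, adjusted p = 0.28). None of 11 passed at P9, where *Rcor2*, a corepressor gene (-2.31, adjusted p = 0.052), and *Sult2b1*, a sulfotransferase gene (1.83, adjusted p = 0.053), came nearest, in opposite directions, and 1 was higher and 1 lower at an unadjusted p under 0.05. Of all genes, 878 were higher and 949 lower of 15960 at that unadjusted threshold at E14.5, and 1317 and 1116 of 13964 at P9. In controls 6 of 13 passed as lower at P9 than at E14.5 and none as higher, where 15.2% of all 17265 genes passed as lower. They were led by the growth factor gene *Mdk* (-5.74) and *Igfbpl1* (-5.51), with a list median of -1.27.

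Among genes of the later steps, 7 of 22 passed at E14.5, where 1.43% of all genes did, 3 with more and 4 with less in *Isl1CKO* than in controls. The granin genes *Chgb* (log2 fold change 0.91) and *Chga* (0.65) were higher and the granin gene *Scg2* (-1.13, adjusted p = 0.026) lower, and the transcription factor genes *Pax6* (-0.39) and *Mnx1* (-1.43) were lower. At P9 10 of 21 passed, where 4.81% of all genes did, 6 higher and 4 lower. *Chgb* (4.43), *Chga* (0.83) and *Scg3* (0.65) were higher and *Scg2* (-2.40) lower, all 4 of them granin genes whose products are found in secretory granules. *Fev*, a transcription factor gene of the intermediate progenitor that follows the *Neurog3* state, was at 81.4 to 168 CPM in controls and 203 to 302 CPM in *Isl1CKO* at E14.5 (log2 fold change 1.02, SE 0.17, adjusted p = 0.0076). At P9 it had 9.80, 11.2, 0.138, 2.85 and 10.4 CPM in controls and 56.1 to 147 CPM in *Isl1CKO* (4.04, SE 0.60, adjusted p = 9.9e-04). Its groups overlapped at neither age. *Mafa*, which encodes a factor of mature beta cells, fell most in this list at P9 (-5.60, SE 0.68, adjusted p = 2e-04). *Insm1* and *Neurod1*, direct targets of NEUROG3, passed at neither age (*Insm1* -0.0076 and -0.46, *Neurod1* 0.13 and -0.067). The median of the list was 0.024 at E14.5 and -0.079 at P9, as its genes moved in both directions. The study had already reported *Fev*, *Chga*, *Chgb* and *Mafa* as changed in these libraries. The counts of this list are therefore no independent measure of the later steps against the members.

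**Figure D3:**
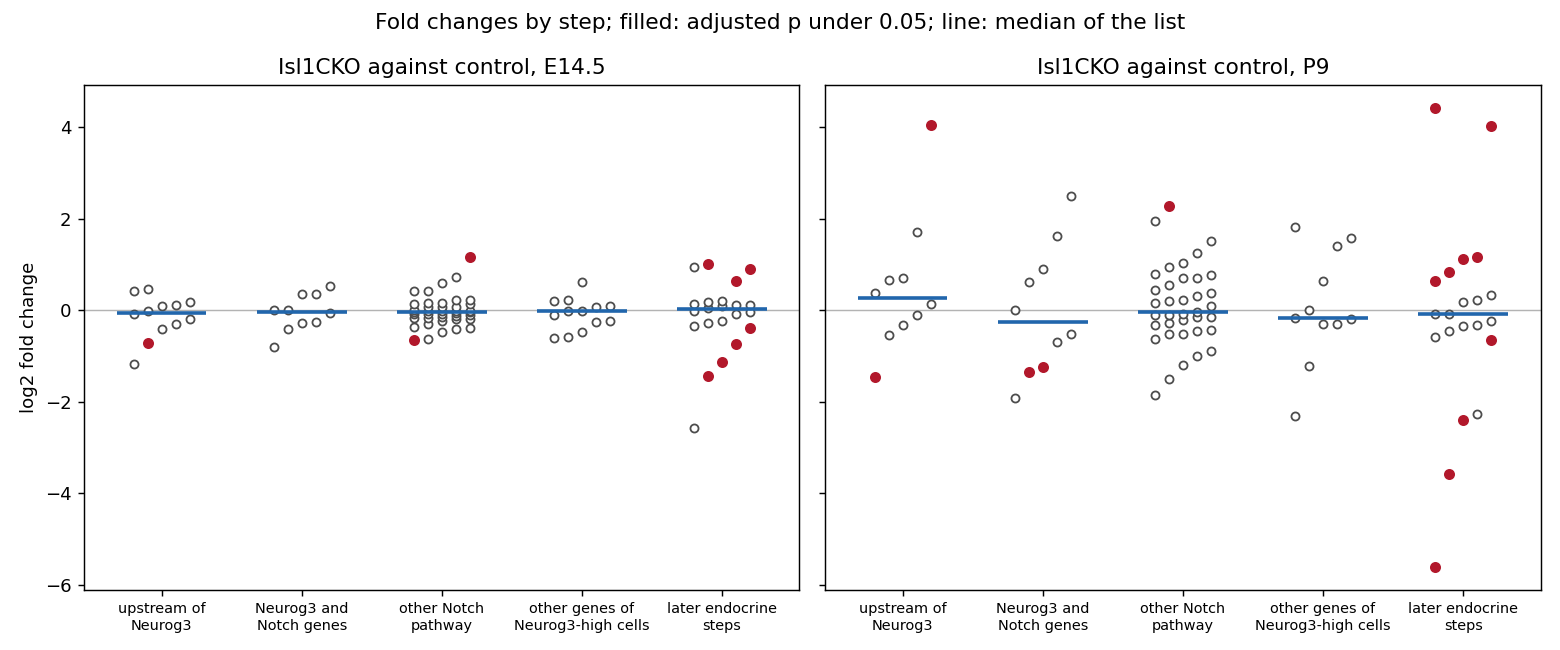
Log2 fold changes of Isl1CKO against control (vertical axis) for each tested gene of 5 lists, at E14.5 and at P9. Each point is a gene, filled red where the adjusted p was under 0.05, and the blue line is the median of the list. At E14.5 none of the 10 members and 7 of 22 later genes passed, and at P9 2 of 10 and 10 of 21. The lists were written with earlier results of these data known.

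Over the 11 libraries of E14.5, after the mean of each group was taken away, the genes that varied most like *Neurog3* were *Azin2* (Pearson r = 0.94), *Orc5* (0.91), *Dmrtc1a* (0.91), *Ppp3ca* (0.90) and *Ung* (0.89), out of 11761 genes ranked. The points share their libraries and 100 cells each, and the values are a description. Among the members *Runx1t1* was most like it (r = 0.66), *Btbd17* (0.42) and *Dll1* (0.39) followed, and *Gadd45a* was least like it (-0.54).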

How the data were processed

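RNA from 100 sorted tdTomato+ cells per library was sequenced in 22 libraries. The authors trimmed reads with cutadapt 1.18 and Trimmomatic, removed ribosomal RNA reads with Bowtie 1.2.2 and SortMeRNA, mapped the rest to GRCm38 with STAR 2.7.0c and assigned uniquely mapped reads to genes with Rsubread at default settings. The deposited tables, 1 per age, hold raw counts, and genes with fewer than 10 counts over the libraries of a table are absent. Groups and replicate numbers came from the sample labels, which pair no animals across groups. Symbols and positions came from GENCODE M21.

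Counts were tested with edgeR 4.0.16 (TMM, filterByExpr, glmQLFit, glmQLFTest), within each age, and over all 22 libraries for the interaction and for age in controls. A gene passed at an adjusted p under 0.05. The SE is the log2 fold change divided by the square root of F, and 95% intervals are the log2 fold change with 1.96 SE on either side. P-values measure the spread between these libraries. Alternatives used DESeq2 1.42.0, limma 3.58.1, other scalings and filters, the replicate number as a block and each library left out. The fits were tested on simulated data. *Neurog3* alone was compared by an exact permutation test with a pseudocount of 1.

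The 10 members and the lists were chosen with earlier results of these data known. Genes named are all members, *Isl1*, *Fev*, the 5 genes most like *Neurog3* (mean scaled count of at least 50), and of each list those that passed in a comparison, or the 6 with the smallest p where more passed, or 2 where none did. Some list genes are not reported here by name, and stay in all counts and medians. *Fam241b*, *Scg2* at E14.5, *Insm1*, *Neurod1* and the markers of single lists were named after their values were seen.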

Additional observations from a re-analysis of the deposited data

Results flagged for a closer look

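In each group of 5 or 6 libraries, a library was singled out where its gap to the nearest other exceeded the 95% critical value of Dixon's test, which chance does in about 1 of 20 groups. Of 40 groups tested over the members, 3 held such a library, all of them *Isl1CKO* libraries at P9. *Sox4* was at 1005 CPM in library 5, with the next library at 202 CPM. *Btbd17* was at 19.7 CPM in the same library, with the next at 11.4 CPM. *Neurog3* was at 30.2 CPM in library 6, with the next at 12.0 CPM.

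The effect of *Isl1CKO* differed between P9 and E14.5 by the interaction term of edgeR for *Btbd17* among the members (-1.71, adjusted p = 0.023). Among the list genes it was lower at P9 for *Rcor2* (-2.29, adjusted p = 0.036). It was higher at P9 for *Dlk1* (1.92, adjusted p = 0.027), *Hhex* (5.23, adjusted p = 0.011), *Rfx3* (0.99, adjusted p = 0.038), *Fev* (3.02, adjusted p = 0.0054), *Chgb* (3.52, adjusted p = 1e-08) and *Scg3* (0.45, adjusted p = 0.048). These are log2 differences between the effects at the 2 ages.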

How the results depend on the processing

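The count of members that passed at E14.5 was 0 in every alternative except DESeq2, which gave 1 and called 538 of all 15960 genes. At P9 it was 2 in the report and 4 with total counts only, 1 with no filter, 4 with 10 counts in every library of 1 group, and 0 with the replicate number as a block. Of all genes, 671 of 13964 passed in the report. In these alternatives, in the same order, 3975 of 13964, 510 of 27504, 778 of 11398 and 333 of 13964 did. The count of members ranged from 1 to 3 when each library was left out, and that of all genes from 467 to 682. For the difference between the ages the count of members was 1, and 3 with DESeq2, limma-voom, total counts only or the stricter filter, 2 with DESeq2 size factors, 0 without *Isl1CKO* libraries 3, 4 and 5 of E14.5 (chosen after seeing the data), and 1 to 3 with a library left out. Of all genes, 359 of 17265 passed in the report, and 871, 395 and 3199 with DESeq2, limma-voom and total counts. With the stricter filter 425 of 14059 passed, and with DESeq2 size factors 368 of 17265. Without those 3 libraries 57 of 19409 passed, and 219 to 484 with a library left out. For age in controls the count of members was 4, with 7 for total counts only and 4 to 6 with a library left out. Of all 17265 genes, 5347 passed in the report and 10636 with total counts only, and 4755 to 5649 genes did with a library left out. Libraries of the same replicate number showed no likeness across all genes, with correlations of their deviations between -0.049 and 0.054. Pairs of different number were not computed beside them, so a litter or batch shared by equal numbers was not tested. With the replicate block *Cbfa2t3* (-1.12, adjusted p = 0.056) and *Btbd17* (-1.39, adjusted p = 0.15) did not pass at P9, and 333 genes did instead of 671. The cause of these moves was not tested. The unadjusted exact p of *Neurog3* kept its side of the threshold at both ages, with differences of 0.17 to 0.66 at E14.5 and 1.97 to 2.76 at P9 when a library was left out.

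Signs turned only for values near 0 or under total counts. At E14.5 *Hes1* was -0.00049 without hormone genes in TMM, -0.00088 with the stricter filter and -0.085 without libraries 3, 4 and 5, and -0.17 to 0.14 with a library left out. *Mfng* was -0.061 with the block, -0.30 without libraries 3, 4 and 5, and -0.17 to 0.12 with a library left out. *Gadd45a* was 0.072 without those libraries and -0.16 to 0.034 with a library left out. At P9 *Hes6* was -0.0028 with DESeq2, -0.031 with limma-voom, -0.0029 with its size factors and -0.16 with the block, and -0.12 to 0.15 with a library left out. With total counts only, *Mfng* at P9 was 0.19, the differences between ages were 0.31 for *Hes6* and 0.15 for *Mfng*, and the changes with age were -0.62 for *Sox4*, -0.76 for *Cbfa2t3* and -0.63 for *Btbd17*. Depth limits *Neurog3*, *Hes1*, *Dll1* and *Mfng* most at P9, where single libraries held under 10 reads.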
